A study of Mus musculus with 40 samples.

Results

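Liver zonation markers, genes expressed mainly at one end of the liver lobule, were examined in mice given GenX. There were 10 such genes of the 21448 gene symbols measured: Glul, Cyp2e1, Cyp1a2, Oat, Slc1a2, Rhbg, Lgr5 and Axin2 as 8 pericentral markers, and Cyp2f2 and Cdh1 as 2 periportal markers. They were taken by gene symbol, and where a gene had several probes its most counted probe gave its value. All 10 passed the filter on low counts, which left 12412 genes tested on their most counted probe. GenX is the trade name of the ammonium salt of a fluorinated ether acid, used in place of longer-chain perfluoroalkyl substances. Wild-type Crl:CD1(ICR) mice of both sexes, whose age is not given in the sources used here, were gavaged daily for 90 days with 0.1 mg, 0.5 mg or 5 mg of GenX per kg of body weight (mg/kg bw/d), and control mice received deionized water alone. A single formalin-fixed, paraffin-embedded liver section from each of 5 mice per sex and dose, 40 in all, was scraped from its slide and measured with TempO-Seq, which ligates DNA probe pairs lying side by side on an RNA and counts the ligated products by sequencing.

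Blood enters the lobule at the portal tracts and leaves at the central vein, and hepatocytes along that path divide the work of the liver. Wnt ligands from the endothelium of the central vein keep β-catenin active in the hepatocytes around it, which switch on glutamine synthetase, the ammonium and glutamate transporters that feed it, and several cytochrome P450 enzymes of xenobiotic metabolism. Hepatocytes near the portal tract make glucose and urea and are marked by Cyp2f2 and by E-cadherin. In bulk tissue, fewer cells of a zone and less RNA per cell cannot be told apart, and the counts hold no positions within the lobule.

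RefSeq promoter windows (GRCm38.p6) were at hand for 7 of the 10 genes, all but Rhbg, Lgr5 and Cdh1. The 250 bases before each start site were searched on both strands for the letters CTTTGAT and CTTTGAA, which TCF/LEF factors, the DNA-binding partners of β-catenin, are known to bind. They were found once each in the windows of Slc1a2, Cyp2e1 and Cyp1a2, and in 7.48% of the 32851 windows of the table. Those 3 windows are shown because they hold the letters. The windows of Glul, Oat, Axin2 and Cyp2f2 hold no match, although Glul, Oat and Cyp2f2 were also called lower in a sex at 5 mg/kg bw/d, and that of Cyp2f2 is shown beside the 3. Each is written 5′ to 3′ up to the first annotated exon, with the match in capitals. Positions are counted from the RefSeq start site. In these windows an annotated exon begins before that site, so the site lies beyond the end of each sequence shown. Slc1a2 is chr2:102706188-102706355 on the plus strand, with its match from position -207 of the start site on the reverse strand, and lies at the start of a RefSeq transcript inside the span of the gene. Cyp2e1 is chr7:140763569-140763738 on the plus strand, with a forward match from position -135. Cyp1a2 is chr9:57683704-57683905 on the minus strand, with a reverse match from position -244. Cyp2f2 is chr7:27119705-27119908 on the plus strand. A match of letters is a description and was not tested as a binding site.
Slc1a2: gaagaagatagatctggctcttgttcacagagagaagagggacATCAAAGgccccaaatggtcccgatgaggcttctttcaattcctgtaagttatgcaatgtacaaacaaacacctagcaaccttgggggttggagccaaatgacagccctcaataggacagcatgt
Cyp2e1: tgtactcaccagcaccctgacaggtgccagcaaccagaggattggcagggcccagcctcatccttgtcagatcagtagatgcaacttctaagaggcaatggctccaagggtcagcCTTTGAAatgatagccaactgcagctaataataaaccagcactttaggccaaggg
Cyp1a2: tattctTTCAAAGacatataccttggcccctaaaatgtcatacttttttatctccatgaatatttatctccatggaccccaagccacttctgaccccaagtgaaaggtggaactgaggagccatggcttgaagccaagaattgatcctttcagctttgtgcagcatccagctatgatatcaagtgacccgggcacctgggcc
Cyp2f2: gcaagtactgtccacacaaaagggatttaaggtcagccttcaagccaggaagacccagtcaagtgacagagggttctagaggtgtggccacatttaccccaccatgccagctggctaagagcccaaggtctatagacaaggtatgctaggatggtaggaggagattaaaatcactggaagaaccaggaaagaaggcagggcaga

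Values are normalized counts (CPM), reads scaled to a common library size by the TMM method. Mouse 355, from the females at 0.5 mg/kg bw/d, had a library that fell more than 2 SD below the mean total of all 40 and was left out. Scaled with the rest, it held Cyp2e1 at 488 CPM and Cyp2f2 at 49.2 CPM, where the 5 female controls held 4139.5 to 7418 CPM and 855 to 1294 CPM. The other 39 libraries held 10341341 to 15562253 reads, which stood for an estimated 287244 to 656743 captured molecules. The molecules per library were 483008 to 656743 in males at 5 mg/kg bw/d against 287244 to 369995 in male controls. Reads on Y-linked probes were present in 20 of 20 males and 0 of 20 females. Of 6 hepatocyte markers, 5 had a probe, and their summed level was between 15178 and 39452 CPM in the mice of the control and 5 mg/kg bw/d groups. The lists of further genes named here were drawn up by known roles but with earlier results of these data known, so their counts are a description. None of their members is one of the 10 markers.

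At 5 mg/kg bw/d markers of both zones were called lower in males, and 3 pericentral markers were called lower in females. The periportal Cyp2f2 and Cdh1 had negative log2 fold changes in females too, -0.34 and -1.26, without a call. Other periportal genes, given below, were also called lower in females. A gene was called at a false discovery rate of 10% (edgeR's quasi-likelihood test, Benjamini-Hochberg adjustment over all 17877 probes tested). In males 5 of the 10 genes were called, where 9.35% of all genes were called in either direction and 3.75% were called lower. These were Cyp2e1, Cyp1a2, Oat and Slc1a2 on the pericentral side and Cyp2f2 on the periportal side, and each was lower. In females 3 genes were called, Glul, Cyp1a2 and Slc1a2, each lower, where 4.09% of all genes were called and 2% were called lower. The median log2 fold change of the 10 genes was -0.995 in males and -0.642 in females, and that of all genes was 0.111 and -0.00776. Taking every tested probe, the median in males was 0.104 under TMM scaling and 0.0308 under DESeq2's size factors, and the 5 calls in males held under both.

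The calls in females were less firm. All 3 were lost without mouse 152, 452 or 454, and only Cyp1a2 was called without mouse 154, 451 or 455. Over these 6 fits the adjusted p ran from 0.101 to 0.318 for Glul and from 0.123 to 0.206 for Slc1a2. With mouse 355 kept in the fit 0 genes were called in females, and 3 were called in males, Oat, Slc1a2 and Cyp2f2, while Cyp2e1 and Cyp1a2 both had an adjusted p of 0.102.

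At the lower doses none of the 10 genes was called on its most counted probe. In males at 0.1 mg/kg bw/d the share of all genes called was 0.0403%, in males at 0.5 mg/kg bw/d it was 2.61%, in females at 0.1 mg/kg bw/d it was 0%, and in females at 0.5 mg/kg bw/d it was 0.201%. With edgeR the counts of the 10 genes at an unadjusted p under 0.05 were 0, 2, 0 and 1, in that order. DESeq2 called 0, 1, 0 and 0 of them, the 1 being Cyp2f2. The 3 treated groups of a sex share the same control mice, so their values are set side by side in the plot of levels by mouse and are not compared as independent results.

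**Figure D1:**
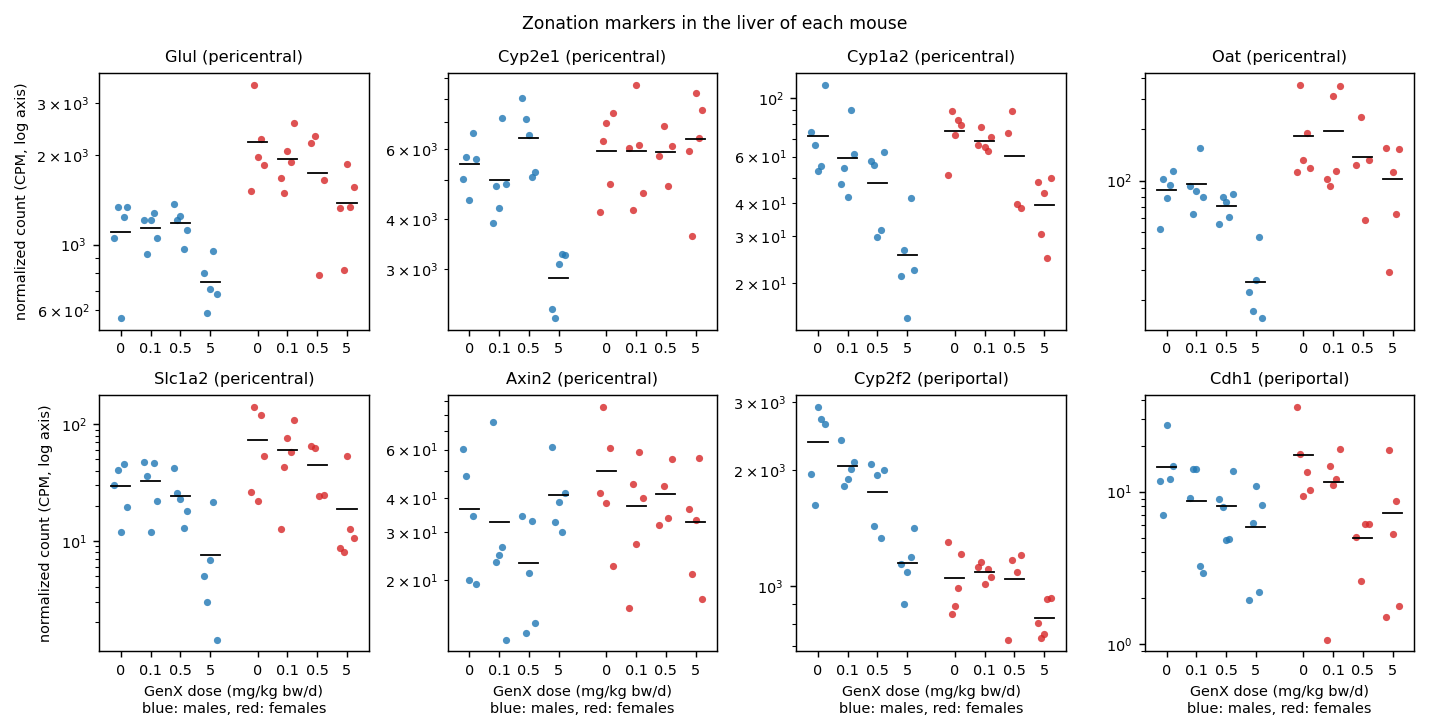
Normalized count (CPM, log axis) of 8 zonation markers in each of 39 mice, by GenX dose (mg/kg bw/d), with males in blue and females in red; bars are arithmetic means of a group. In males at 5 mg/kg bw/d all 5 mice sat below every male control for Cyp2e1, Cyp1a2, Oat and Cyp2f2.

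Glul encodes glutamine synthetase, which joins ammonium to glutamate in the rim of hepatocytes around the central vein (chr1:153899944-153909723, GRCm38, plus strand). In male controls it stood at 1052, 1339, 565, 1240.4 and 1337 CPM, and at 5 mg/kg bw/d at 801, 589, 706, 955 and 684 CPM. All control mice but 1 lay above all treated mice, and the exception, mouse 103, lay below them. The log2 fold change of -0.57 ± 0.22 (SE, n = 5 and 5) did not pass the test (adjusted p = 0.122, edgeR).

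Without mouse 103 the change was -0.73 (adjusted p = 0.0229), and without mouse 404 it was -0.67 (adjusted p = 0.0765). Of the 8 other settings 5 called it, with adjusted p between 0.00488 and 0.254 over the 8. The second Glul probe was called in males, with a log2 fold change of -0.88 ± 0.26 (adjusted p = 0.0248), and was not called in females (-0.62 ± 0.26, adjusted p = 0.258). In female controls Glul stood at 1514, 3459.6, 1978, 2269 and 1860.1 CPM, and at 5 mg/kg bw/d at 1329, 824, 1878, 1339 and 1562 CPM. The groups overlapped, and the fall of 0.68 on the log2 scale (SE 0.22, adjusted p = 0.0852) was lost in the 6 fits named above, with adjusted p up to 0.318 without mouse 152, and with DESeq2's size factors (adjusted p = 0.105).

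Oat is ornithine aminotransferase, which makes glutamate from ornithine in the same pericentral rim (chr7:132557478-132576398, minus strand). In male controls it stood at 51.9, 102, 78.9, 94.8 and 114 CPM, and at 5 mg/kg bw/d at 22.1, 17.2, 26.1, 46.7 and 15.6 CPM. The groups did not overlap, and the gene fell 3.45-fold, a log2 fold change of -1.79 ± 0.38 (adjusted p = 9.4e-04). In females Oat stood at 112, 365, 132, 189.6 and 119 CPM in controls and at 155, 29, 112, 63.4 and 153 CPM at 5 mg/kg bw/d. The female groups overlapped and the log2 fold change of -0.84 ± 0.37 did not pass (adjusted p = 0.258).

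Slc1a2 encodes the glutamate transporter GLT-1, which brings glutamate to the cells with glutamine synthetase (chr2:102658659-102790784, plus strand). In male controls its levels were 30.3, 40.8, 11.8, 45.8 and 19.4 CPM, or an estimated 4 to 16 captured molecules, and at 5 mg/kg bw/d they were 4.93, 2.97, 6.86, 21.5 and 1.41 CPM, or 1 to 13 molecules. All but 1 of the treated mice were below every control, the exception being mouse 404 at 21.5 CPM. The gene fell 3.93-fold (log2 fold change -1.98 ± 0.57, adjusted p = 0.0226). Leaving out 1 mouse moved this to between -1.71 and -2.87, the latter without mouse 404, with adjusted p up to 0.0896. Female controls had 26.4, 142, 22, 121 and 53.2 CPM, and females at 5 mg/kg bw/d had 8.65, 8.06, 53.1, 12.7 and 10.6 CPM. Mouse 453, at 53.1 CPM, stood apart from the other treated females, which were all below the controls. The fall in females was 3.91-fold (log2 fold change -1.97 ± 0.57, adjusted p = 0.0427), and it ran from -1.58 without mouse 152, where the call was lost (adjusted p = 0.206), to -2.86 without mouse 453. Male and female log2 fold changes differed by -0.01, without a call. Leaving out 1 mouse moved this difference to between -0.905 and 0.889, so it is known only loosely.

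The other probes of Slc1a2 had log2 fold changes between -1.07 and -2.05 in males and between -1.51 and -2.25 in females. Not all were called with edgeR. Probe Slc1a2_30225 was called in neither sex (adjusted p = 0.687 in males and 0.258 in females). Probe Slc1a2_63688 was called in males (adjusted p = 0.0451) and not in females (adjusted p = 0.228). Probe Slc1a2_76103 was called in females too (log2 fold change -1.57 ± 0.46, adjusted p = 0.0441). Probe Slc1a2_76103 was at 9.13, 15.1, 13.7, 19.9 and 23.1 CPM in male controls and at 4.73, 3.15, 4.27, 3.34 and 4.01 CPM in males at 5 mg/kg bw/d, without overlap (log2 fold change -2.05 ± 0.47, adjusted p = 0.00207). Rhbg, an ammonium transporter of the same cells (chr3:88242874-88254709, minus strand), was at 0 in 18 of the 39 libraries and never above 10.5 CPM, or 3 captured molecules. Its changes were not detectable at this depth, with a log2 fold change at 5 mg/kg bw/d of -0.37 ± 2.14 in males and 1.03 ± 2.17 in females.

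Cyp2e1, the P450 that oxidizes ethanol and acetaminophen (chr7:140763739-140774987, plus strand), fell in males and was not called in females. In male controls it stood at 5031, 5724, 4462, 6567 and 5662 CPM, and at 5 mg/kg bw/d at 2387, 2264, 3090, 3269.6 and 3260 CPM. No treated male reached the lowest control, and the gene fell 1.92-fold (log2 fold change -0.94 ± 0.18, adjusted p = 1.8e-04). In females it stood at 4177, 6269, 6960.3, 4906 and 7367 CPM in controls and at 5908, 3633, 8286, 6383 and 7489.8 CPM at 5 mg/kg bw/d, with wide overlap (log2 fold change 0.10 ± 0.18, adjusted p = 1). The change in males minus that in females was -1.04 ± 0.25 (adjusted p = 0.0336, edgeR interaction), and it was called in all 20 fits that left out 1 mouse. It was the only interaction called among the 10 genes at 5 mg/kg bw/d, where 1.19% of all genes were called. None was called at 0.1 or 0.5 mg/kg bw/d, where the shares of all genes were 0% and 0.322%, none had an unadjusted p under 0.05 and DESeq2 called 0.

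**Figure D2:**
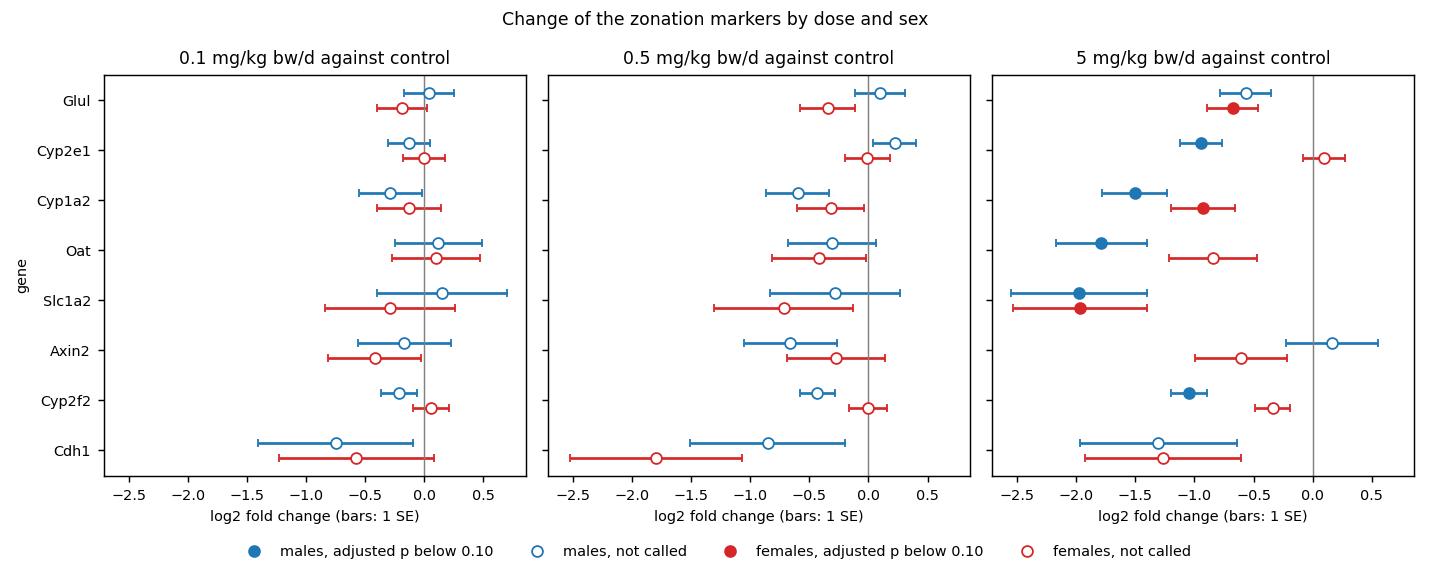
Log2 fold change (TMM-scaled counts, bars 1 SE) of 8 zonation markers against the controls of the same sex, by dose, with called genes as filled points. At 5 mg/kg bw/d Cyp2e1 was at -0.94 in males and 0.10 in females; at 0.1 and 0.5 mg/kg bw/d all points are open.

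The 3 probes of Cyp2e1 did not move by the same amount in males. Probe Cyp2e1_77060 was at 4271, 6726, 5441, 6327 and 5115 CPM in male controls and at 1385, 1286, 1629, 1629 and 1379.7 CPM at 5 mg/kg bw/d, a log2 fold change of -1.93 ± 0.20 (adjusted p = 2.9e-10). Probe Cyp2e1_29238 changed by -1.54 ± 0.20 (adjusted p = 7.1e-08), and the most counted probe, Cyp2e1_68041, by -0.94. At 0.5 mg/kg bw/d probe Cyp2e1_77060 was called in males (log2 fold change -0.70 ± 0.19, adjusted p = 0.0491), while probe Cyp2e1_68041 stood at 0.22 ± 0.18 (adjusted p = 0.753). That call was lost without any one of the mice 102, 104, 303 and 305.

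Within a mouse the log2 ratio of probe Cyp2e1_77060 to probe Cyp2e1_68041 had a mean of 0.02 ± 0.23 (SD, n = 5) in male controls, -0.31 ± 0.45 in the 0.1 mg group, -0.90 ± 0.225 in the 0.5 mg group and -0.95 ± 0.18 in the 5 mg group. The 5 male controls spanned -0.24 to 0.29 and the 5 males at 0.5 mg/kg bw/d spanned -1.06 to -0.51, without overlap. In female controls the mean was -1.10 ± 0.26 (n = 5), and in the treated females, from the lowest dose up, it was -1.13, -0.84 and -1.02. All 5 males at 5 mg/kg bw/d, at -1.24 to -0.79, lay within the span of the female groups, -1.33 to -0.66, and the highest male at 0.5 mg/kg bw/d lay above it. These ratios were examined after the values had been seen and carry no test. The positions of the probes on the transcript are not given in the sources used here, and their part in these differences was not tested.

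**Figure D3:**
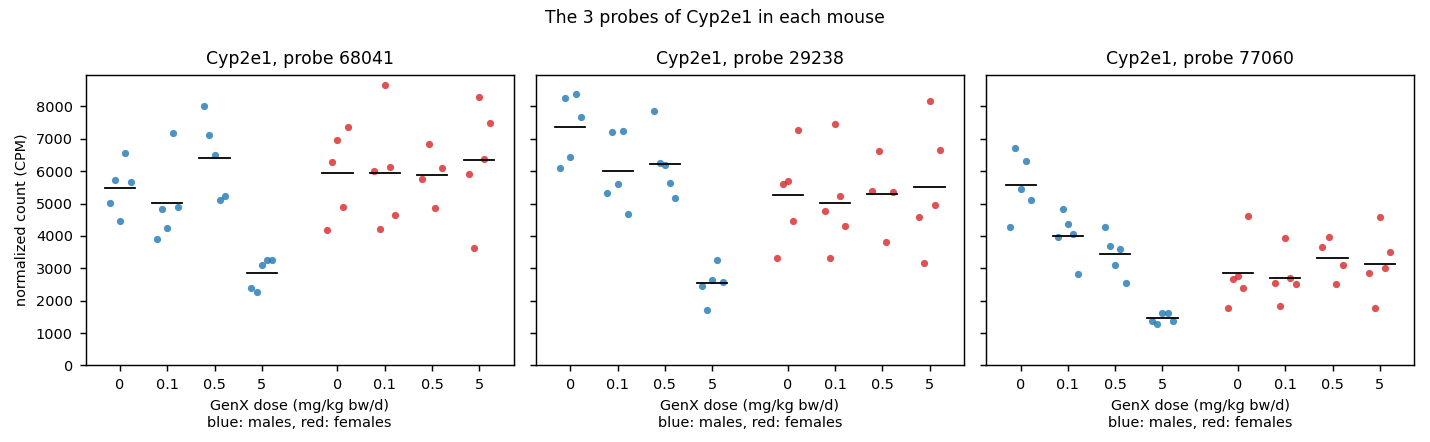
Normalized count (CPM, axis from 0) on each of the 3 probes of Cyp2e1 in 39 mice, by dose (mg/kg bw/d) and sex, with group means as bars. Probe Cyp2e1_77060 stood at 4271 to 6726 CPM in male controls and 1779 to 4621 CPM in female controls, whereas the ranges of probe Cyp2e1_68041 in the control sexes overlapped widely.

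Cyp1a2, the P450 that clears caffeine (chr9:57676937-57683703, minus strand), was lower in both sexes at the highest dose. In male controls it stood at 74.1, 66.2, 52.7, 55.1 and 112 CPM, and in treated males at 21.3, 26.5, 14.7, 42 and 22.4 CPM. The groups did not overlap, and the fall was 2.83-fold (log2 fold change -1.50 ± 0.27, adjusted p = 8.6e-05). Female controls had 51.3, 89.6, 72.7, 82.6 and 79 CPM, and treated females had 48, 30.6, 43.6, 24.8 and 49.8 CPM, again without overlap. The fall in females was 1.91-fold (log2 fold change -0.93 ± 0.27, adjusted p = 0.0447), and it was lost without mouse 152 (adjusted p = 0.127), mouse 452 (adjusted p = 0.14) or mouse 454 (adjusted p = 0.17). Cyp1a2 was the only marker whose groups did not overlap in females at 5 mg/kg bw/d, where 1.58% of all genes had every treated mouse below every control. Its second probe, Cyp1a2_29175, was called in males (log2 fold change -1.41 ± 0.35, adjusted p = 0.00535) and not in females (-0.86 ± 0.345, adjusted p = 0.256). On that probe the female groups overlapped, at 26.3 to 48.8 CPM in controls and 13.3 to 27.9 CPM at 5 mg/kg bw/d.

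Lgr5 and Axin2 belong to the Wnt pathway itself. Lgr5, a receptor for R-spondins, which amplify Wnt signals (chr10:115450311-115587780, minus strand), was at 0 in 20 of the 39 libraries and never above 5.42 CPM, or 2 captured molecules. At 5 mg/kg bw/d a change of Lgr5 (log2 fold change 0.76 ± 2.39 in males and 0.28 ± 2.38 in females) was not detectable at this depth. Axin2, a scaffold that turns β-catenin over and is itself switched on by it (chr11:108920349-108950783, plus strand), stood at 60.4, 48.1, 20, 34.4 and 19.3 CPM in male controls and at 61.4, 32.6, 38.7, 30.1 and 41.8 CPM in males at 5 mg/kg bw/d. The log2 fold change was 0.17 ± 0.39, with an approximate 95% interval of -0.60 to 0.93 (adjusted p = 1). In females it stood at 41.5, 86.2, 38.4, 61 and 22.5 CPM in controls and at 36.5, 21, 33.1, 56 and 17.1 CPM at 5 mg/kg bw/d, a log2 fold change of -0.61 ± 0.39 (adjusted p = 0.546). The groups overlapped in both sexes. The second Axin2 probe was never above 2.63 CPM.

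Other genes of the pathway gave few calls at 5 mg/kg bw/d, where 9.35% of all genes were called in males and 4.09% in females. Of 9 further feedback targets of Wnt signaling, 6 were tested, and only Notum, a secreted enzyme that inactivates Wnt ligands, was called, lower in males at 5 mg/kg bw/d. It stood at 10.6 to 35.6 CPM in male controls and 0 to 9.74 CPM in treated males, with a log2 fold change of -2 ± 0.66 (adjusted p = 0.0578). In females it stood at 10 to 33.2 CPM in controls and 0.219 to 20.5 CPM at 5 mg/kg bw/d, a change of -0.56 ± 0.64 that did not pass (adjusted p = 0.992). Of 17 receptors, ligand-secretion genes and signal transducers, Gsk3b, a kinase of the β-catenin destruction complex, was called higher in males (log2 fold change 0.69 ± 0.245, adjusted p = 0.0895) and none was called in females. Of the 3 Wnt pathway ligands of the central vein, Wnt9b was not tested and had no read in the control and 5 mg/kg bw/d groups. Wnt2 had log2 fold changes of -0.74 ± 1.21 in males and -0.86 ± 1.21 in females, and Rspo3 had -0.28 ± 0.77 and -1.24 ± 0.78, with no call.

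Cyp2f2, a P450 of naphthalene metabolism and a marker of periportal hepatocytes (chr7:27119909-27133660, plus strand), also fell in males. In male controls it stood at 1955, 1624, 2928, 2712 and 2644 CPM, and at 5 mg/kg bw/d at 1141, 901, 1089, 1191 and 1419 CPM. The groups did not overlap, and the fall was 2.07-fold (log2 fold change -1.05 ± 0.15, adjusted p = 1.0e-06). At 0.1 mg/kg bw/d the males had 2398, 1826, 1902, 2015 and 2096 CPM and at 0.5 mg/kg bw/d they had 2078, 1436, 1944, 1331 and 2009 CPM. The log2 fold change at 0.5 mg/kg bw/d, -0.43 ± 0.15, did not pass (adjusted p = 0.168), and 4 of the 8 other settings and the fit without mouse 102 (adjusted p = 0.0572) called it.

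In females Cyp2f2 had 1305, 846, 891, 987 and 1212 CPM in controls and 801, 736, 752, 924 and 930.5 CPM at 5 mg/kg bw/d. The treated mice were at the low end of the controls and overlapped them, and the change of -0.34 ± 0.15 did not pass (adjusted p = 0.258). The change in males minus that in females, -0.71 ± 0.21, had an adjusted p of 0.122 and was called under 5 of the 8 other settings and without mouse 101, 102, 151, 405 or 452 (adjusted p down to 0.0486). In males at 5 mg/kg bw/d the 4 markers without overlap were Cyp2e1, Cyp1a2, Oat and Cyp2f2, all lower, where 3.38% of all genes had every treated mouse below every control.

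Cdh1 is E-cadherin, an adhesion protein of periportal hepatocytes that bile duct cells make too (chr8:106603351-106670246, plus strand). It was counted at 1.07 to 36 CPM over all mice, or a few captured molecules. In males it stood at 11.7, 6.99, 27.3, 12 and 14.6 CPM in controls and 1.96, 6.24, 10.8, 2.2 and 8.17 CPM at 5 mg/kg bw/d (log2 fold change -1.30 ± 0.66, adjusted p = 0.238). In females it stood at 36, 17.5, 9.31, 13.4 and 10.3 CPM in controls and 1.5, 18.8, 5.26, 8.63 and 1.79 CPM at 5 mg/kg bw/d (log2 fold change -1.26 ± 0.66, adjusted p = 0.322). The groups overlapped in both sexes. In females at 0.5 mg/kg bw/d its 4 mice, at 5.02, 2.61, 6.09 and 6.14 CPM, were all below the controls, where 0.83% of all genes were, but the change did not pass (adjusted p = 0.485). The summed level of 9 markers of bile duct cells was 39.5 to 66 CPM in male controls, 45.5 to 99.4 CPM in males at 5 mg/kg bw/d, 25.7 to 89.5 CPM in female controls and 33.4 to 52 CPM in females at 5 mg/kg bw/d, with Epcam, a defining one, at 0 in all but 1 of these 20 mice. Its part in the level of Cdh1 was not tested.

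The lower doses filled in the series without a call on the most counted probe of a gene. In the order 0.1 mg group and 0.5 mg group, Glul had means of 1137 ± 143 and 1184 ± 149 CPM in males and 1945 ± 416 and 1743 ± 700.1 CPM in females (SD, n = 5, and n = 4 for the last). Oat had 95.8 ± 35.2 and 71.3 ± 12.1 CPM in males and 197 ± 129.7 and 137 ± 72.9 CPM in females, and Slc1a2 had 32.8 ± 15.6 and 24.3 ± 11.1 CPM in males and 59.6 ± 35.7 and 44.3 ± 22.7 CPM in females. For these 3 genes of glutamine synthesis the male means at both doses were above those of the males at 5 mg/kg bw/d. Cyp2e1 had 5016 ± 1274 and 6398 ± 1239.9 CPM in males and 5933 ± 1740 and 5888 ± 829.8 CPM in females. Its probe Cyp2e1_77060, called in males of the 0.5 mg group as given above, had 4005 ± 748 and 3436 ± 652 CPM in males. Cyp1a2 had 59 ± 18.8 and 47.5 ± 15.5 CPM in males and 68.6 ± 5.73 and 60.1 ± 25.2 CPM in females, and its log2 fold change in males of the 0.5 mg group was -0.60 ± 0.27 (adjusted p = 0.259). Both P450 genes had male means at the lower doses above the mean at the highest. Axin2 had 32.5 ± 24.9 and 23.1 ± 10.2 CPM in males and 37.3 ± 16.6 and 41.2 ± 10.9 CPM in females, and Cdh1 had 8.64 ± 5.46 and 8.04 ± 3.59 CPM in males and 11.6 ± 6.69 and 4.96 ± 1.65 CPM in females.

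In untreated mice the sexes differed in markers of both ends of the lobule. Among control mice 2 of the 10 genes were called, where 3.89% of all genes were called, and these 2 genes were also those whose groups did not overlap, where 4.06% of all genes did not. Glul was 2.00-fold higher in female than in male controls (log2 difference 1.002 ± 0.22, adjusted p = 0.00301), at 1514 to 3459.6 CPM against 565 to 1339 CPM. Cyp2f2 was 2.26-fold lower in female controls (log2 difference -1.18 ± 0.15, adjusted p = 2.6e-07), at 846 to 1305 CPM against 1624 to 2928 CPM.

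Both calls held under all 8 other settings and in all 10 fits that left out 1 mouse. Oat and Slc1a2 had log2 differences of 1.06 ± 0.37 and 1.30 ± 0.56 toward females that did not pass (adjusted p = 0.154 and 0.246). Cyp2e1 differed by 0.11 ± 0.18 on its most counted probe, whereas its probe Cyp2e1_77060 was lower in female controls (log2 difference -0.97 ± 0.20, adjusted p = 0.00111). Cyp1a2 differed by 0.06 ± 0.27, with an approximate 95% interval of -0.46 to 0.59. Males at 5 mg/kg bw/d had Cyp2f2 at 901 to 1419 CPM, a range that overlapped that of the female controls.

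A ratio of 2 genes within a mouse does not depend on how the libraries were scaled, while its own size depends on how well each probe captures its RNA, so only differences between groups are read. The log2 ratio of Cyp2e1 to Cyp2f2 was 1.36, 1.82, 0.61, 1.28 and 1.10 in male controls and 1.07, 1.33, 1.50, 1.46 and 1.20 in males at 5 mg/kg bw/d. The group means were 1.23 ± 0.44 and 1.31 ± 0.18 (SD, n = 5 each), a difference smaller than the spread between mice, while both genes were called lower. With the 3 Cyp2e1 probes summed the difference was -0.41 in place of 0.08. At 0.1 and 0.5 mg/kg bw/d the male means were 1.27 ± 0.41 and 1.86 ± 0.34. The latter stood 0.63 above controls, with overlap, and 0.215 above at the lowest under other settings. In females the means were 2.49 ± 0.52 in controls and 2.89 ± 0.42 at 5 mg/kg bw/d, with 2.40 ± 0.46 and 2.51 ± 0.36 at 0.1 and 0.5 mg/kg bw/d.

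The log2 ratio of Glul to Cyp2f2 had a higher mean in females than in males in every dose group. It was -0.89, -0.28, -2.37, -1.13 and -0.98 in male controls and 0.21, 2.03, 1.15, 1.20 and 0.62 in female controls, without overlap. That follows from the values of Glul and Cyp2f2 given above, neither of which overlapped between control sexes, and is no further result. In males at 5 mg/kg bw/d the ratio had a mean of -0.62 ± 0.27 and in females at that dose a mean of 0.70 ± 0.42 (SD, n = 5 each). No test was run on these ratios, since the genes had been chosen with results known.

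**Figure D4:**
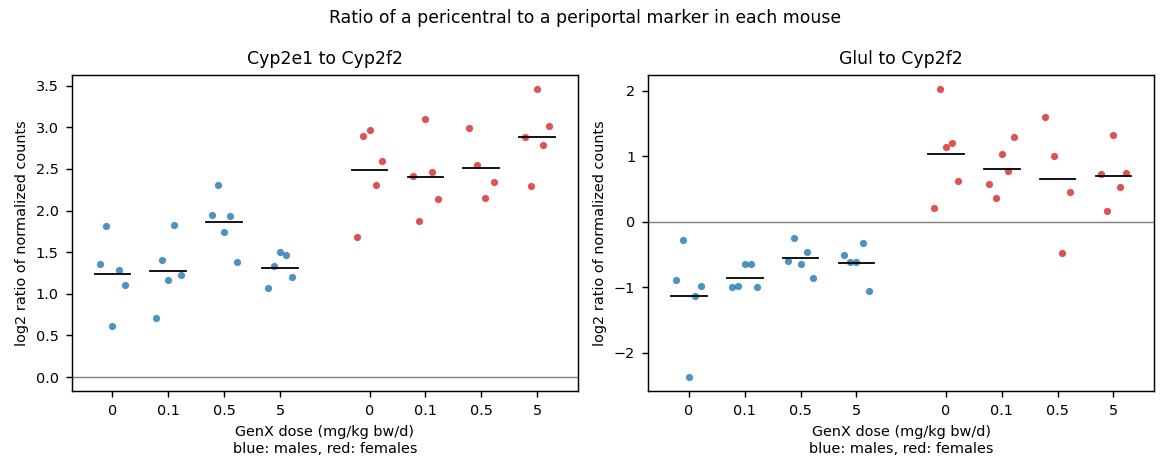
Log2 ratio of normalized counts within each of 39 mice for Cyp2e1 to Cyp2f2 and Glul to Cyp2f2, by dose (mg/kg bw/d), with males in blue, females in red and group means as bars. The ratio of Glul to Cyp2f2 spanned -2.37 to -0.28 in male controls and 0.21 to 2.03 in female controls, with means of -1.13 and 1.04.

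Over 39 libraries, as deviations from the group means of log2 CPM, Glul had a Pearson correlation of 0.73 with Oat, 0.64 with Slc1a2, 0.54 with Cyp2e1 and 0.50 with Cyp1a2, of 0.28 with Axin2, 0.165 with Rhbg and 0.161 with Lgr5, and of -0.20 with Cyp2f2 and -0.30 with Cdh1. Rhbg and Lgr5 rest on very few molecules. Of 12411 other genes the 3 most like Glul were Ang (r = 0.76), Igfbp4 (r = 0.75) and Oat. The 3 most like Cyp2f2 were UGT2B15 (r = 0.62), Fbxo30 (r = 0.59) and Cdc34 (r = 0.56). Both genes of a pair come from the same library and share its depth, and these values are a description with no test.

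Other genes of the 2 zones, from lists that do not include the 10 markers, moved in both directions. Of 17 other pericentral genes, all tested, 4 were called lower and 2 higher in males at 5 mg/kg bw/d. In females 4 were called lower and 1 higher. Of all genes 3.75% were called lower and 5.59% higher in males, and 2% lower and 2.09% higher in females. The 6 calls in males numbered 2 to 9 under the other settings and 5 to 7 leaving out 1 mouse. The 5 calls in females numbered 1 with all 40 libraries, 8 with molecules in place of reads, and 3 with only the groups compared or without mouse 152. Cyp2c50, a P450 of the arachidonate and drug-metabolizing Cyp2c family, was at 14.8 to 38.6 CPM in male controls and 0 to 4.96 CPM in treated males (log2 fold change -3.64 ± 0.61, adjusted p = 1.8e-05), and changed by -1.87 ± 0.555 in females (adjusted p = 0.0519). Its near-identical relatives in the family make its counts uncertain. Prodh, proline dehydrogenase, was at 143 to 165 CPM in male controls and 21.4 to 47.6 CPM in treated males (log2 fold change -2.19 ± 0.24, adjusted p = 2.1e-09), and changed by -1.53 ± 0.24 in females (adjusted p = 1.0e-05). Aldh1a1, a retinaldehyde dehydrogenase, was at 7.78 to 29.5 CPM in male controls and 38.8 to 54.1 CPM in treated males (log2 fold change 1.48 ± 0.30, adjusted p = 3.6e-04) and rose by 1.02 ± 0.295 in females (adjusted p = 0.0439). The median log2 fold change of the 17 genes was -0.48 in both sexes.

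Of 24 other periportal genes, all tested, 13 were called lower and 1 higher in males at 5 mg/kg bw/d, and 9 lower and 0 higher in females, with a median log2 fold change of -0.74 in males and -0.67 in females. The shares of all genes called lower were again 3.75% and 2%, and those called higher 5.59% and 2.09%. The 14 calls in males numbered 10 to 17 under the other settings and 13 to 15 leaving out 1 mouse. The 9 calls in females numbered 4 to 11 under the other settings, 4 being with all 40 libraries, and 5 without mouse 155 and 6 without mouse 153, 452 or 453. In both sexes the genes called lower included 3 enzymes of urea synthesis, with log2 fold changes in males and females of -1.18 and -1.02 for Cps1, -1.29 and -0.93 for Ass1 and -1.11 and -1.21 for Asl, as well as Pck1 of glucose synthesis at -1.24 and -0.84. These 4 were chosen for mention after their values were seen. Among control mice 9 of the 24 genes were called higher in females and 0 lower, whereas Cyp2f2 was lower there. Of the 17 other pericentral genes 3 were also called higher in female controls and 0 lower. Those 3 calls numbered 0 with all 40 libraries and 1 to 2 leaving out 1 mouse. Of all genes 2.37% were called higher in female controls and 1.52% lower. These 9 calls numbered 4 with all 40 libraries and 6 without mouse 102. Gldc, of the glycine cleavage system, was at 37.9 to 74.2 CPM in male controls and 12.4 to 19.7 CPM in treated males (log2 fold change -1.86 ± 0.31, adjusted p = 1.3e-05). It did not pass in females (-0.22 ± 0.30), and the difference between the sexes did (-1.64 ± 0.42, adjusted p = 0.0488). Pigr, the receptor that carries IgA into bile and that bile duct cells can make too, changed by -1.99 ± 0.39 in males and -1.55 ± 0.38 in females (adjusted p = 2.6e-04 and 0.0107). Hsd17b13, a lipid droplet protein, was the gene called higher, at 221 to 549 CPM in treated males against 52.2 to 74.1 CPM in male controls (log2 fold change 2.45 ± 0.33, adjusted p = 2.4e-07). In females Hsd17b13 changed by 0.19 ± 0.31, and the difference between the sexes passed (2.26 ± 0.45, adjusted p = 0.00399). Gldc and Hsd17b13 were the 2 interaction calls of this list, where 1.19% of all genes were called. Only 1 call was left without mouse 403, 451 or 454 and with all 40 libraries.

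**Figure D5:**
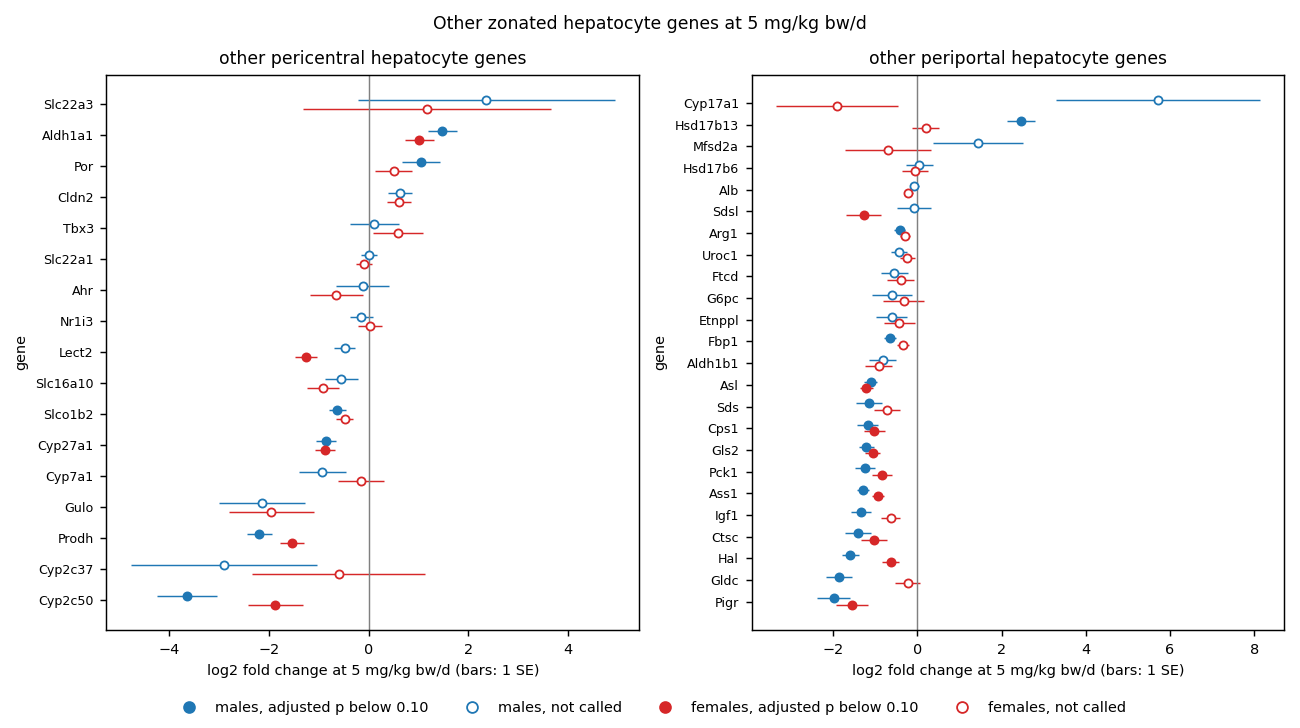
Log2 fold change (bars 1 SE) at 5 mg/kg bw/d of 17 other pericentral and 24 other periportal hepatocyte genes in males (blue) and females (red), with called genes as filled points. On the periportal side 13 genes were called lower and 1 higher in males; Cyp17a1, with no read in any male control, has a fitted value that is not a bound.

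Genes that handle ammonium and glutamate around Glul were called in part. Of 14 listed, 13 were tested, and 3 were called lower in males at 5 mg/kg bw/d and 2 in females. Of all genes 3.75% were called lower in males and 2% in females. Gls2, the liver glutaminase, which is also on the periportal list and frees ammonium from glutamine upstream of the pericentral rim, was at 229 to 379 CPM in male controls and 72.4 to 152 CPM in treated males (log2 fold change -1.21 ± 0.18, adjusted p = 1.1e-06), and changed by -1.06 ± 0.175 in females (adjusted p = 3.4e-05). Slc7a2, an arginine and ornithine transporter, changed by -0.79 ± 0.21 in males (adjusted p = 0.0089). Glud1, glutamate dehydrogenase, changed by -0.42 ± 0.14 in males and -0.59 ± 0.14 in females (adjusted p = 0.0713 and 0.00833).

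The levels of other marker lists in the same mice are given here. The summed level of the 5 hepatocyte markers, of which Alb is also on the periportal list, was 30245 to 37075 CPM in male controls and 17911 to 24712 CPM in treated males, and 23041 to 39452 CPM in female controls and 15178 to 24381 CPM in treated females. Of the 5, Serpina1a, Apoa1 and Apob were called lower in males and Serpina1a and Apoa1 in females, where 3.75% and 2% of all genes were. The log2 fold changes of Serpina1a in males and females were -1.65 ± 0.20 and -2.08 ± 0.20. Apoa1 made up most of the sum and of its difference, with means of 26559 CPM in male controls and 14393 CPM in treated males and of 20296 and 12404 CPM in females. Alb and Ttr were not called, at means of 3366 and 3203 CPM and of 3639.8 and 3262 CPM in control and treated males. Serpina1a has near-identical copies that its probe could share. The summed level of 5 proliferation genes was 13.2 to 45.6 CPM in male controls and 48.6 to 97 CPM in treated males, with Top2a at 0 in all 5 male controls and at 5.95 to 19.8 CPM in treated males. In females that sum was 12.1 to 40.5 CPM in controls and 23.3 to 55 CPM at 5 mg/kg bw/d, with overlap, and none of the 5 genes was called with edgeR, while 1, Mki67, had an unadjusted p under 0.05. In males Top2a alone of the 5 was called, higher (adjusted p = 0.0148, edgeR). Of all genes 5.59% were called higher in males and 2.09% in females.

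Markers of other cell types gave 1 call at this dose, Clec4g of sinusoidal endothelium, lower in males (log2 fold change -0.61 ± 0.21, adjusted p = 0.0688). Of all genes 9.35% were called in males and 4.09% in females. The summed level of 5 endothelial markers was 134 to 164 CPM in male controls and 74.1 to 149 CPM in treated males, that of 5 Kupffer cell markers was 13.1 to 63.3 and 29.3 to 38.2 CPM, that of 5 stellate cell markers was 71.3 to 119 and 71.2 to 103 CPM, and that of 4 lymphocyte markers was 0 to 10.6 and 0 to 11.4 CPM. In females the ranges in controls and at 5 mg/kg bw/d were 157 to 203 and 128 to 191 CPM for endothelial markers, 59.6 to 130.4 and 54.1 to 106 CPM for Kupffer cell markers, 71.4 to 122 and 69.5 to 96.1 CPM for stellate cell markers, and 7.11 to 24.6 and 3.84 to 15.5 CPM for lymphocyte markers. The number of captured molecules was higher in treated males than in male controls, as given above. With molecules in place of reads as the unit the 5 zonation markers called in males were called again. That fit scales libraries to a common size too, so it cannot show whether the molecules of a marker fell per section. Before scaling, median molecules in male controls and treated males were 1655 and 1601 for Cyp2e1 and 19 and 15 for Cyp1a2. They were 29 and 12 for Oat, 10 and 3 for Slc1a2, and 813 and 605 for Cyp2f2, and the ranges overlapped for each. The part of these measures in the levels of the zonation markers was not tested.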

How the data were processed

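Probe counts of 40 FFPE liver sections, each from a different mouse, were used. The authors deposited them as raw read counts per TempO-Seq probe, not normalized. The submitters' processing notes name bcl2fastq 2.17.1.14, Bowtie and mm10. The 10 markers and the 13 gene lists were chosen with earlier results of these data known. The 30146 probes (21448 gene symbols) were read by mouse number, 0 sample columns were left unused, and 1 library more than 2 SD below the mean total was dropped. In R 4.3.3, edgeR 4.0.16 (filterByExpr, minimum count 10, TMM) fitted 1 quasi-likelihood model to 39 libraries and 8 groups, with the Benjamini-Hochberg adjustment over 17877 probes and a threshold of 10%. CPM are TMM-scaled with no prior count, and a prior count of 2 entered the log2 values behind ratios and correlations. Captured molecules were estimated as reads divided by each library's reads per molecule (20.8 to 49.8), read from the peak of its nonzero counts, and for low genes these few molecules rather than the reads set the precision. The genes named were all 10 markers and up to 3 called genes per list with the largest log2 fold change at 5 mg/kg bw/d. Genes of lists of 5 or fewer and the 3 genes most correlated with Glul and with Cyp2f2 were named too. Cps1, Ass1, Asl and Pck1 were named outside this rule after their values were seen. Cyp17a1, Alb, Ttr and Epcam were also named outside it. Alternatives were DESeq2 1.42.0, its size factors, no filter, all 40 libraries, a fit to only the groups compared, summing the probes of a gene, estimated molecules, a 5% threshold, a prior count of 0.5 for ratios and leaving out each mouse. Both tools were checked on simulated data, where DESeq2 made many more false calls than edgeR.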

Additional observations from a re-analysis of the deposited data

Results flagged for a closer look

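In groups of 4 or 5 mice, 7 of the 80 sets of values held 1 mouse far from the others. The rule flags about 1 in 20 sets of normally distributed values. That rate does not hold for genes with few reads and many mice at 0, so the count is not compared with it. Glul in male control mouse 103 was 565 CPM, against 1052 to 1339 CPM in the other 4. Slc1a2 in female mouse 453 at 5 mg/kg bw/d was 53.1 CPM, against 8.06 to 12.7 CPM. Cdh1 in female mouse 251 at 0.1 mg/kg bw/d was 1.07 CPM, against 11 to 19.1 CPM. The remaining cases were Rhbg and Lgr5, which rest on very few molecules. Rhbg was 3.27 CPM in male mouse 205 and 3.03 CPM in female mouse 253, both at 0.1 mg/kg bw/d, with the other mice of each group at 0, and it was 0 in female control mouse 155, against 1.81 to 4.45 CPM. Lgr5 was 3.75 CPM in male control mouse 102, with the others at 0.

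The change of Cyp2e1 at 5 mg/kg bw/d differed between the sexes by an interaction test, with a log2 difference of males minus females of -1.04 (adjusted p = 0.0336, edgeR's quasi-likelihood test).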

How the results depend on the processing

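No marker that was called changed direction under any alternative run. Of the 10 markers, those called in males at 0.5 mg/kg bw/d numbered 0, and 1 with DESeq2, its size factors, no filter on low counts or estimated molecules (0 to 1 leaving out each mouse). In males at 5 mg/kg bw/d they numbered 5, and 3 with all 40 libraries (5 to 6). In females at 5 mg/kg bw/d they numbered 3, 0 with all 40 libraries, 1 with only the groups compared, 4 with no filter, which added Oat, and 2 with size factors or the 5% threshold, which lost Glul (0 to 3). Their interactions at 5 mg/kg bw/d numbered 1, 0 with all 40 libraries and 2 with DESeq2, its size factors, no filter, summed probes or molecules (1 to 2). Between control sexes they numbered 2, and 4 with no filter (2 to 2). Of the further probes of these genes, 1 was called in males at 0.5 mg/kg bw/d and 0 with all 40 libraries (0 to 1). In females at 5 mg/kg bw/d 1 was called, 3 with no filter, 4 with molecules and 0 with all 40 libraries or only the groups compared (0 to 2). At the interaction 2 were called, and 1 with all 40 libraries (2 to 2). Between control sexes 1 was called, 2 with DESeq2, 3 with only the groups compared, 4 with no filter and 6 with molecules (1 to 2). The log2 ratio of Cyp2e1 to Cyp2f2 in males at 5 mg/kg bw/d was 0.08, and -0.41 with probes summed (-0.08 to 0.22 leaving out each mouse). Over all probes at 5 mg/kg bw/d, 1480 were called in males (834 with all 40 libraries), 655 in females (238 with all 40, 988 with DESeq2) and 186 at the interaction (27 with all 40, 304 with no filter, 394 with molecules, 543 with DESeq2). Of the interaction calls 55.9% were higher, and 42.4% with size factors and 36.5% with molecules, and in males 58.3% were higher, and 47.8% with molecules. Except for the left-out libraries, the causes were not tested. Molecules gave values for 7 of the 10 markers. No paired analysis was possible because the groups share no replicate numbers.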
